A study of Mus musculus with 8 samples.

Results

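Metallothionein genes and the genes of zinc sensing and export were followed through 4 mouse fibrosarcoma lines. The genes were chosen by symbol: Mt1, Mt2 and Mt3, which encode metallothioneins, Mtf1, which encodes their zinc-sensing regulator, and Slc30a1, which encodes the plasma membrane zinc exporter ZnT1. All 5 were among the 18768 genes of the deposited table. Low counts removed 1 of them, Mt3, so that 4 of the 15153 genes tested were from this set. The counts of Mt3 are described without the main test. Each line grew from a tumor raised in a mouse with methylcholanthrene, a chemical carcinogen, and was passaged in serum-containing medium. Lines MC010 and MC011 came from IRF8 knock-out mice and carry the label IRF8 KO. Lines MC654 and MC659 came from C57BL/6 mice and carry the label WT. The cultures sequenced had received no treatment, and each line gave 2 libraries, so that 4 libraries stood against 4 but only 2 tumors against 2. No label says that the libraries of a line came from separate cultures. P-values between lines measure the spread between the libraries of a line, which may be technical. Those between labels treat 4 libraries as separate, and their spread also takes in the difference between the 2 lines of a label.

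Metallothioneins are small, cysteine-rich proteins that bind zinc and copper ions. When free zinc rises in a cell, the transcription factor MTF1 binds short metal response elements (MREs) in its target promoters and raises transcription of Mt1, Mt2 and Slc30a1, whose products bind the metal or move it out of the cell. Mt1 and Mt2 are made in most tissues and also respond to glucocorticoids and oxidative stress, whereas Mt3 is best known from the brain.

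The metallothionein genes lie in one cluster on the plus strand of chromosome 8 (mm10). Mt1 (ENSMUSG00000031765) spans 94179082 to 94180327 and Mt2 (ENSMUSG00000031762) spans 94172664 to 94173568, with its first base 6.42 kb before that of Mt1. Mt3 (ENSMUSG00000031760) spans 94152607 to 94154146. Mtf1 (ENSMUSG00000028890) lies on chromosome 4, 124802104 to 124849800, and Slc30a1 (ENSMUSG00000037434) on chromosome 1, 191906767 to 191913247, both also on the plus strand. RefSeq (GRCm38.p6) gave a window of 250 bases before the annotated start for 5 of 5 genes. The windows were searched on both strands for the MRE core, spelled TGCACNC or TGCGCNC, and those of the 2 genes that differed between the labels and of the exporter are printed here, with each match in capitals.
Mt1, chr8:94178839-94179088, plus strand: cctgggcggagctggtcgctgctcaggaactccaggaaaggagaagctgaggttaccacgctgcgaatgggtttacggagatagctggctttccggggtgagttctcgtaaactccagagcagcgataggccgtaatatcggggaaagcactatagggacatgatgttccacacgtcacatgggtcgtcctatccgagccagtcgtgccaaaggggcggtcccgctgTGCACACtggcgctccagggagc
Mt2, chr8:94172368-94172617, plus strand: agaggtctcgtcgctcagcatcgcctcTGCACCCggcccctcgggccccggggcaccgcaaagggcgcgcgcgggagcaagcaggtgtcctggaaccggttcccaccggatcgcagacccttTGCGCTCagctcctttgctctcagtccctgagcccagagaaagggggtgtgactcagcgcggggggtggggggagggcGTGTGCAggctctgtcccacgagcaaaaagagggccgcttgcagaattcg
Slc30a1, chr1:191906531-191906780, plus strand: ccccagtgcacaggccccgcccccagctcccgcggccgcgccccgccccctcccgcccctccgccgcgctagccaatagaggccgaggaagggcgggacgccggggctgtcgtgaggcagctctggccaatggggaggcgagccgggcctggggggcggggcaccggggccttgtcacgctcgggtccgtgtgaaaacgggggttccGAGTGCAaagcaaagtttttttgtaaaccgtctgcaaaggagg
The Mt2 window held 3 matches, 223, 128 and 50 bases before the start, the Mt1 window held 1 at 23 bases, and the Slc30a1 window held 1 at 43 bases. The windows of Mt3 and Mtf1 held 0. Of 32817 such windows, 21.4% held at least 1 match, 5.18% at least 2 and 1.26% at least 3. No window of these 5 genes held TATAAA, the letters of a TATA box, which 7.60% of all windows held on the gene's strand. In the first exons of the first-listed GENCODE transcripts of Mt1 and Mt2, TATAAA began at exon bases 129 and 90, with 4 and 3 MRE cores before it. These letters lie outside the windows printed above, so the window counts for Mt1 and Mt2 do not include them. First exons of other genes were not searched, so these exon counts have no background beside them. The stretch from the last of these cores to TATAAA is shown for Mt1 and Mt2, both in capitals, because the pair shares this arrangement.
Mt1, chr8:94179187-94179215, plus strand: TGCGCCCggactcgtccaacgacTATAAA
Mt2, chr8:94172729-94172758, plus strand: TGCGCTCgacccaatactctccgcTATAAA
These matches describe letters in the reference and are not measured sites.

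The libraries held 74063616 to 116206078 counts, and levels are in CPM, meaning counts put on one library size with TMM factors. A floor of 3 counts corresponded to 0.0262 to 0.0408 CPM, for counting error only. The libraries labelled IRF8 KO had more Irf8 RNA than those labelled WT (10 to 442 counts against 0 to 2), which goes against the label, so directions below are given by label. Most of these counts were in MC010 (442 and 347), with 32 and 10 in MC011. Counts per gene do not separate the deleted part of Irf8 from the rest, and the study's PCR genotyping of the lines was not analysed here. All 6 mesenchymal markers were present, with a summed level of 6294 to 8434 CPM in libraries labelled IRF8 KO and 5793 to 6815 CPM in those labelled WT. Of 7 hematopoietic markers, 4 were in the table (not Adgre1, Itgam or Cd3e), with sums of 5.72 to 7.38 CPM under the IRF8 KO label and 9.67 to 11.4 CPM under the WT label. Markers of epithelium, endothelium and muscle each summed to at most 3.07 CPM in any library.

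Mt1 and Mt2 RNA were both higher in the lines labelled IRF8 KO, Mt1 by 1.73-fold and Mt2 by 6.97-fold. Mtf1 and Slc30a1 were not called between the labels. A gene was called at an adjusted p under 0.05 and an absolute log2 fold change above 0.59, by the quasi-likelihood test of edgeR, with p-values adjusted by Benjamini and Hochberg's method across the genes tested. Thus 2 of the 4 tested genes were called, both higher, where 22.5% of all tested genes were called, 13.7% higher and 8.72% lower under the IRF8 KO label.

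**Figure D1:**
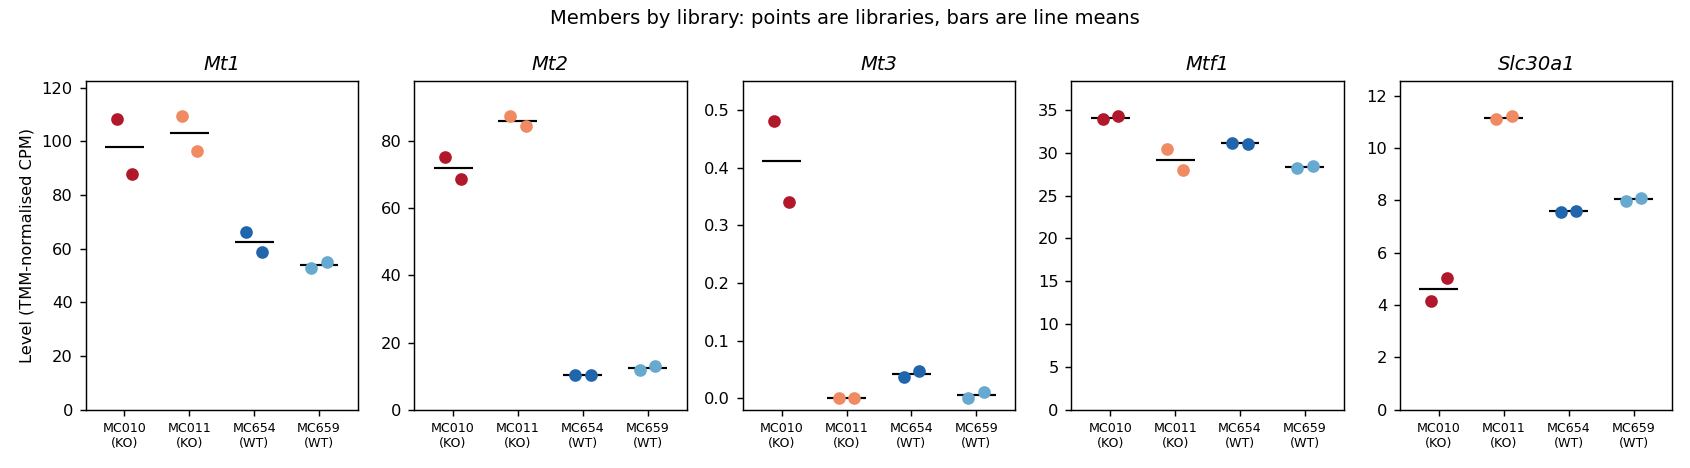
Levels of the 5 genes (TMM-normalised CPM, a separate axis for each gene) in the 2 libraries of each line, with the line mean as a bar. Mt1 and Mt2 separate the labels, Mt3 is seen mainly in MC010, Mtf1 runs from 28.0 to 34.3 CPM, and Slc30a1 is lowest in MC010 and highest in MC011.

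Mt1 stood at 108.4 and 87.7 CPM in MC010, 109.4 and 96.5 CPM in MC011, 66.3 and 58.7 CPM in the MC654 libraries, and 52.7 and 55.1 CPM in those of MC659. The 4 libraries labelled IRF8 KO all exceeded the 4 labelled WT. The means were 100.5 ± 10.3 CPM (SD, n = 4) and 58.2 ± 5.93 CPM (SD, n = 4), and the log2 fold change came to 0.79 (SE 0.10, edgeR adjusted p = 0.000656). An exact two-sided permutation test over the libraries gave p = 0.0286, the smallest that 4 against 4 allows, and over line means 0.333, the smallest that 2 against 2 allows. In the order of line means, MC011 (103.0 ± 9.07 CPM, SD, n = 2) and MC010 (98.1 ± 14.6 CPM) did not differ beyond their spread (log2 difference −0.07 for MC010 minus MC011, SE 0.09, edgeR adjusted p = 0.514). Without the first MC010 library that difference was −0.23 with an edgeR adjusted p of 0.0243, still short of the fold threshold. MC654 (62.5 ± 5.34 CPM) and MC659 (53.9 ± 1.69 CPM) followed, with a log2 difference of 0.21 (SE 0.09, edgeR adjusted p = 0.139).

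Mt2 differed more. It stood at 75.2 and 68.6 CPM in MC010, 87.4 and 84.6 CPM in MC011, 10.4 and 10.2 CPM in the MC654 libraries, and 11.7 and 12.95 CPM in those of MC659. The lowest library labelled IRF8 KO was thus well above the highest library labelled WT. The means were 79.0 ± 8.66 CPM (SD, n = 4) and 11.3 ± 1.28 CPM (SD, n = 4), and the log2 fold change came to 2.80 (SE 0.11, edgeR adjusted p = 3.57e-06), with an exact permutation p of 0.0286 over libraries and 0.333 over lines. Among all tested genes, 22.1% likewise had every library labelled IRF8 KO above every library labelled WT. MC011 (86.0 ± 2.01 CPM, SD, n = 2) was above MC010 (71.9 ± 4.64 CPM) by a log2 difference of 0.26 in size (SE 0.06, edgeR adjusted p = 0.00176), below the fold threshold. MC659 (12.3 ± 0.857 CPM) was above MC654 (10.3 ± 0.117 CPM) by 0.26 (SE 0.07, edgeR adjusted p = 0.0257), also below the fold threshold. Without the second MC659 library the difference was 0.19 (edgeR adjusted p = 0.229). Without the first or the second MC654 library it was 0.27 (adjusted p = 0.0656) or 0.25 (0.0843), about as large but no longer past the p threshold.

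Mt1 and Mt2 were both called in each of the 4 line comparisons that cross the labels. For MC010 against MC654, where 35.9% of tested genes were called, the log2 differences were 0.65 for Mt1 and 2.80 for Mt2. Against MC659 (36.8% called) they were 0.87 and 2.54. For MC011 they were 0.72 and 3.06 against MC654 (29.7% called), and 0.93 and 2.80 against MC659 (30.3% called). The highest edgeR adjusted p among these 8 differences was 1.18e-05, for Mt1 between MC010 and MC654. These comparisons share libraries and are not independent of one another. Neither gene was called between MC654 and MC659, where 4.95% of tested genes were.

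**Figure D2:**
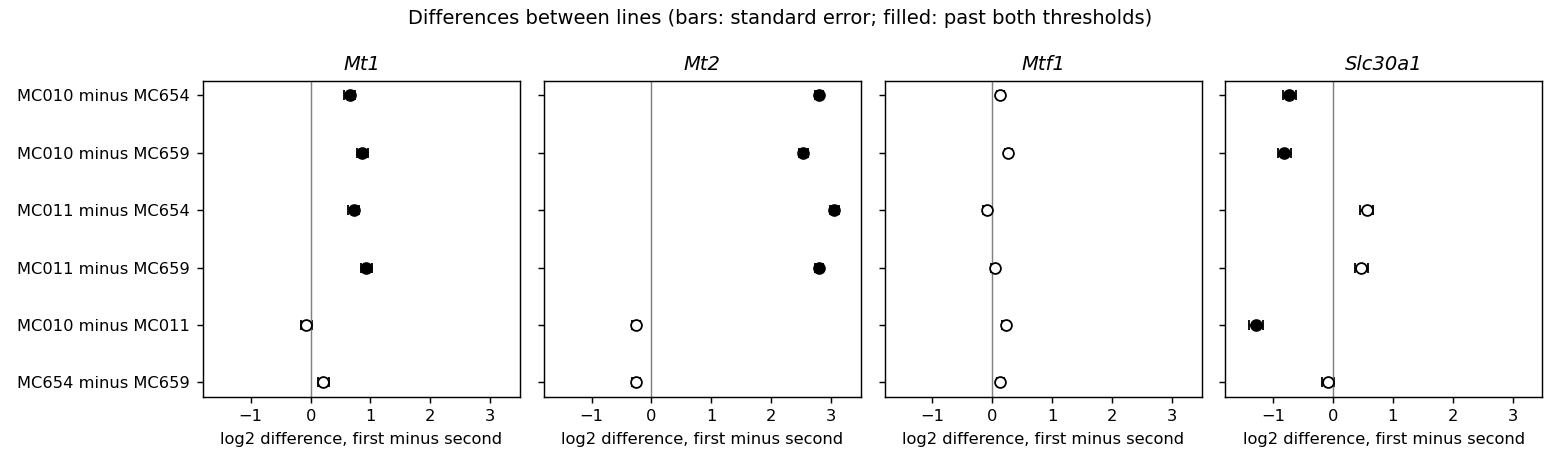
Log2 differences between pairs of lines (first minus second) for the 4 tested genes, with standard errors from edgeR as bars and filled points past both thresholds. Mt1 and Mt2 lie to the right of 0 in the 4 pairs that cross the labels, Mtf1 has no filled point, and Slc30a1 lies on opposite sides of 0 for MC010 and MC011.

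When the counts of each line were added, leaving 2 values against 2, the log2 fold changes were 0.81 for Mt1 and 2.81 for Mt2, with edgeR adjusted p = 0.0871 and 0.0511, and neither was called. The summed level of hematopoietic markers was lower under the IRF8 KO label, opposite in direction to both genes, and its part in the result was not tested. In RNA from whole cultures, fewer cells making a transcript and less of it per cell cannot be told apart.

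The same counts can be read as the balance within the pair, a comparison chosen after the values had been seen and one that restates the unequal fold changes of Mt1 and Mt2. Mt2 made up 40.9% and 43.9% of the Mt1 and Mt2 counts together in the libraries of MC010, and 44.4% and 46.7% in MC011. It made up 13.6% and 14.8% in MC654, and 18.2% and 19.0% in MC659. The exact binomial 95% intervals of these shares ran from 40.3% to 47.5% over the libraries labelled IRF8 KO and from 12.7% to 20.04% over those labelled WT, for counting error only. The shares of the labels did not overlap. As a log2 ratio of Mt2 to Mt1 counts, the means were −0.35 ± 0.14 (SD, n = 4) and −2.36 ± 0.28 (SD, n = 4), a difference of 2.01 or 4.04-fold.

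**Figure D3:**
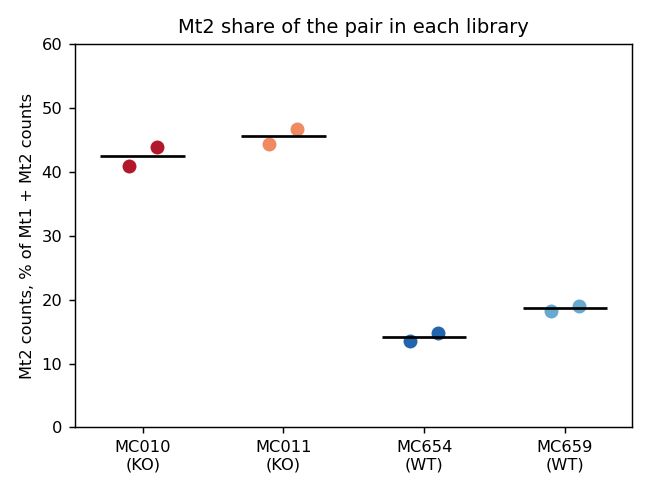
Mt2 counts as a percentage of Mt1 and Mt2 counts together in each library, with line means as bars. The libraries labelled IRF8 KO lie between 40.9% and 46.7% and those labelled WT between 13.6% and 19.0%.

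Per length, Mt2 was below Mt1 in both lines labelled WT, while the order in the lines labelled IRF8 KO turned on the length used. In CPM per kb of the union of annotated exons (1246 bases for Mt1, 588 for Mt2), Mt2 was at 17.5 in MC654 and 21.0 in MC659, against 50.2 and 43.3 for Mt1. On this scale Mt2 was at 122.3 in MC010 and 146.3 in MC011, above Mt1 at 78.7 and 82.6. In CPM per kb of a single GENCODE transcript of each gene (549 and 511 bases), a scale added after seeing the data, Mt2 was instead below Mt1 in all 4 lines, at 140.7 against 178.6 in MC010 and 168.3 against 187.6 in MC011. The exon union of Mt1 covers its whole gene span, introns included, whereas that of Mt2 does not, so unions lower Mt1 relative to Mt2. Per kb of exon union, Mtf1 ran from 3.18 to 3.83, Slc30a1 from 0.876 to 2.13, and Mt3 was at most 0.385. The longest run of bases shared by Mt1 and Mt2 transcripts was 20, and no run of 50 was shared between the metallothionein genes.

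Mt3 was found almost only in MC010, with 55 and 25 counts in its libraries. It had 0 and 0 counts in MC011, 3 and 4 in MC654, and 0 and 1 in MC659. Summed over each line and divided by the library totals, MC010 was at 0.420 CPM. Its level was at least 19.2-fold higher than that of MC011 by the lower bound of the exact 95% interval, and 24.1-fold above a floor of 3 counts taken over both MC011 libraries together. Against MC654 the ratio was 10.2 (exact 95% interval 4.72 to 26.2), and against the 1 count of MC659 it was 75.1 (13.1 to 3003), all for counting error only. In a fit without the filter on low counts, the edgeR adjusted p was 4.17e-05 for MC010 against MC011, 0.00182 against MC654 and 9.11e-05 against MC659. The same fit gave 0.168 between the labels, and most Mt3 counts lay in 1 of the 2 lines with the IRF8 KO label. Mt4, the remaining metallothionein gene of the cluster, known from stratified epithelium, had 22 counts in MC010, 0 in MC011, 4 in MC654 and 0 in MC659.

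Mtf1 RNA, which encodes the zinc sensor, was close to level across the lines. It stood at 33.9 and 34.3 CPM in MC010, 30.4 and 28.0 CPM in MC011, 31.2 and 31.1 CPM in the MC654 libraries, and 28.2 and 28.5 CPM in those of MC659. The libraries of the labels overlapped, with means of 31.6 ± 3.02 CPM (SD, n = 4) and 29.7 ± 1.60 CPM (SD, n = 4). On the log2 scale the difference was 0.09 (SE 0.08, edgeR adjusted p = 0.449, exact permutation p = 0.400). MC010 was highest, above MC011 by a log2 difference of 0.22 (SE 0.06, edgeR adjusted p = 0.00483) and above MC659 by 0.27 (edgeR adjusted p = 0.00123), both below the fold threshold. Neighbours in the order MC010, MC654, MC011, MC659 did not pass the test (edgeR adjusted p = 0.0696, 0.208 and 0.580). Without MC011 the label difference was 0.20 with an edgeR adjusted p of 0.0245, again below the fold threshold.

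Slc30a1, the zinc exporter, split the lines labelled IRF8 KO. It stood at 4.17 and 5.02 CPM in MC010, 11.1 and 11.2 CPM in MC011, 7.55 and 7.60 CPM in the MC654 libraries, and 7.98 and 8.10 CPM in those of MC659. The libraries labelled WT thus lay between those of MC010 and MC011. MC011 was 2.44-fold above MC010, with a log2 difference of −1.29 for MC010 minus MC011 (SE 0.11, edgeR adjusted p = 5.76e-08), a pair in which 31.6% of all tested genes were called. MC010 was below MC654 by a log2 difference of −0.73 (edgeR adjusted p = 2.98e-05) and below MC659 by −0.82 (8.77e-06), and both were called. MC011 was above them by 0.56 (edgeR adjusted p = 0.000292) and 0.47 (0.00109), both short of the fold threshold. MC654 and MC659 did not pass the test (−0.09, edgeR adjusted p = 0.674), although both MC659 libraries lay above both MC654 libraries.

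Between the labels, Slc30a1 therefore averaged 7.88 ± 3.81 CPM (SD, n = 4) and 7.81 ± 0.274 CPM (SD, n = 4). The edgeR log2 fold change was 0.01 (SE 0.33, adjusted p = 0.980), while the difference of mean log2 CPM was −0.13 (exact permutation p = 0.657). This value rested on both lines being present. Without MC010 it was 0.50 (edgeR adjusted p = 0.00128), and without MC011 it was −0.76 (0.000484).

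Genes annotated on the opposite strand overlap Mt2, Slc30a1 and Mtf1. The kit was stranded, but the strand setting of the counting was not given in the sources used here. Gm45774, antisense to Mt2, had at most 13 counts in a library, against at least 867 for Mt2. 1700034H15Rik, at Slc30a1, averaged 0.200 CPM under the IRF8 KO label and 0.350 CPM under the WT label (edgeR adjusted p = 0.263), and 1110065P20Rik, at the end of Mtf1, averaged 14.1 and 14.2 CPM (adjusted p = 0.920).

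Around the cluster, 19 genes within 250 kb of Mt1 stood in the table and 13 were tested, Mt1 and Mt2 included. Of the other 11, 2 were called, where 22.5% of all tested genes were, and both were lower under the IRF8 KO label (8.72% of all tested genes), the poorly characterised genes Gm45873 (log2 fold change −2.12, edgeR adjusted p = 0.0103) and 9330175E14Rik (−1.51, 0.0318). Gm45873 averaged 0.034 CPM under the IRF8 KO label, near the floor, against 0.150 CPM under the WT label. It had at most 16 counts in a library. 9330175E14Rik was also low, at 0.201 against 0.582 CPM. None of the 11 was called higher, where 13.7% of all tested genes were. Their log2 fold changes ran from −2.12 to 1.57 with a median of −0.15. Nup93, a nuclear pore gene, was at −0.15 (edgeR adjusted p = 0.285), Bbs2, a ciliary gene, at 0.15 (0.542), and Herpud1, a gene of the endoplasmic reticulum stress response, at −0.59 (0.116). The value of 1.57 belonged to Gnao1, a G protein subunit gene, which was not called (SE 1.00, edgeR adjusted p = 0.255) and which differed between MC010 and MC011 by a log2 difference of −4.44.

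**Figure D4:**
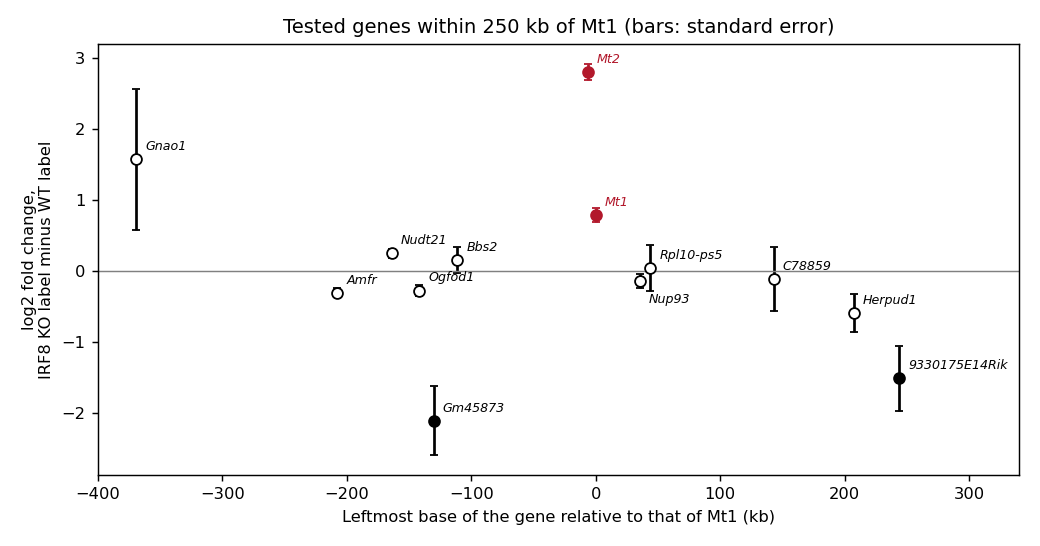
Log2 fold changes between the labels (IRF8 KO minus WT, bars are standard errors) for the 13 tested genes within 250 kb of Mt1, against the position of each gene's leftmost base relative to that of Mt1 in kb, with filled points past both thresholds. Mt2 and Mt1, in red, are the filled points above 0, and the filled points below 0 are Gm45873 and 9330175E14Rik.

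Zinc transporters other than Slc30a1 moved in both directions. The SLC30 family moves zinc out of the cytosol. Of its 9 other genes, 5 were in the table and tested, 1 was called higher, 0 lower, against 13.7% higher and 8.72% lower of all tested genes, and the median log2 fold change was −0.20 against 0.02 over all tested genes. A count of 1 in 5 is near that background. The one called was Slc30a4, a transporter of intracellular vesicles, at 467.2 CPM under the IRF8 KO label and 210.4 CPM under the WT label (2.22-fold, edgeR adjusted p = 0.000602). Slc30a5 passed the p threshold but not the fold threshold, with a log2 fold change of −0.22.

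The SLC39 family moves zinc into the cytosol. Of its 14 genes, 12 were tested, 3 were called higher and 1 lower, where 22.5% of all tested genes were called, 13.7% higher and 8.72% lower. The median log2 fold change was 0.05. Slc39a8, which also carries manganese, was at 3.81 against 1.96 CPM (1.94-fold, edgeR adjusted p = 0.0291), and Slc39a13, a transporter of the secretory pathway, at 73.9 against 48.2 CPM (1.53-fold, adjusted p = 0.0208). Slc39a4, the intestinal importer, was called from 0.501 against 0.0374 CPM, the latter near the floor. Slc39a10, a plasma membrane importer that MTF1 is known to repress, was lower, at 82.9 against 142.5 CPM (edgeR adjusted p = 0.000235). With MC654 or MC659 left out, 0 importers were called higher. Between MC010 and MC011, where Slc30a1 differed and 31.6% of all tested genes were called, 0 of the 5 other SLC30 genes were called. In the same pair, 3 SLC39 genes were higher in MC010 (Slc39a4, Slc39a8 and Slc39a11, log2 differences 1.71, 0.75 and 0.63) and 2 were lower (Slc39a6 and Slc39a13, −1.03 and −0.62).

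**Figure D5:**
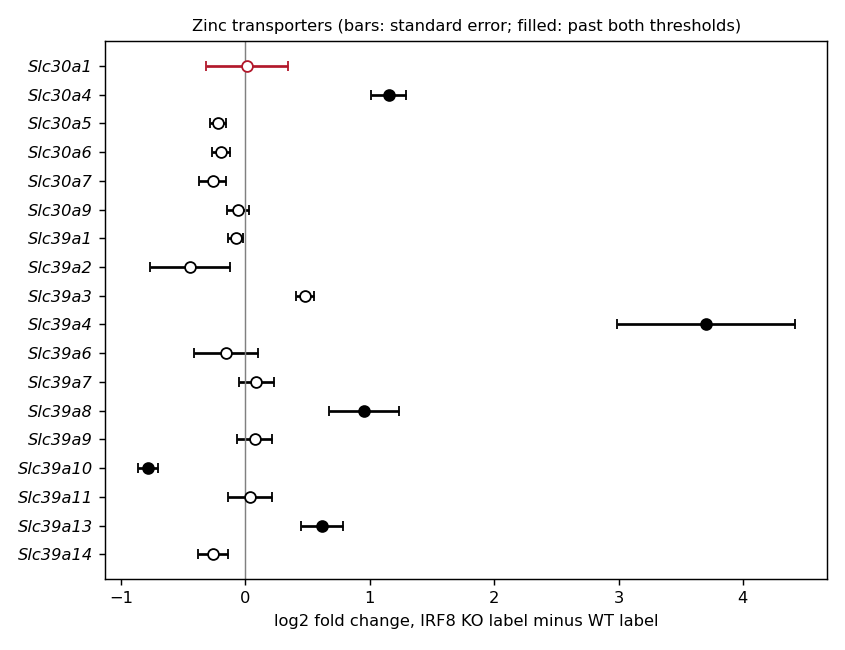
Log2 fold changes between the labels (IRF8 KO minus WT, bars are standard errors) for the tested zinc transporters of the SLC30 and SLC39 families, with filled points past both thresholds. Slc30a1, in red, lies at 0.01, Slc30a4, Slc39a4, Slc39a8 and Slc39a13 are the filled points above 0, and Slc39a10 is the filled point below 0.

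The genes called among other known MTF1 targets went in both directions, but the list includes Slc39a10, which MTF1 is known to repress. All 7 listed were tested, 1 was called higher and 1 lower, near the 22.5% called among all tested genes, and the median log2 fold change was 0.12. The one higher was Ndrg1, a stress- and hypoxia-responsive gene, at 84.0 against 39.7 CPM (2.12-fold, edgeR adjusted p = 0.0367), and the one lower was Slc39a10, also counted above. With MC654 or MC659 left out, 0 of the list were called higher, and Ndrg1 differed between MC010 and MC659 by a log2 difference of 0.09 (edgeR adjusted p = 0.140). Between MC010 and MC011, where 31.6% of all tested genes were called, 3 of the 7 were higher in MC010, namely Gclc, of glutathione synthesis, Pgf, a growth factor gene, and Slc40a1, the iron exporter, with log2 differences of 1.29, 5.68 and 3.10. Ndrg1 was lower in MC010 by −1.18.

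The genes whose levels ran most like each tested gene over the 8 libraries were taken by Pearson's r of log2 CPM among 10678 genes. They were Wdr46 (0.999), Traf4 and Zfp651 (0.994 each) for Mt1, and Bcl2l11, Fam43a and Jade2 (at least 0.998) for Mt2. For Mtf1 they were Spred2, Slc20a2 and Mis18a (0.969 to 0.987), and for Slc30a1 they were Gpatch2l, Zscan26 and Emx2 (0.992 to 0.995). Among the 4 tested genes, r was 0.946 for Mt1 with Mt2 and −0.813 for Mtf1 with Slc30a1. The 8 points come from 4 lines and share library pairs, so these values are descriptions.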

How the data were processed

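Total RNA from 4 cultured lines, 2 libraries each, was sequenced with a stranded mRNA kit. Per the paper's methods, the authors aligned reads to mm10 with STAR and counted them per gene with HTSeq. The submitters' processing notes give STAR 2.7.3a and HTSeq 0.11.2, whereas the paper's methods name other versions of both. The strand setting of the counting was not given in the sources used here. The deposited table holds raw counts, a signal (counts divided by a size factor) and the authors' own comparison (mean signal, log2 fold change, score, p-value), which was not used. The lowest sum of a gene over the 8 libraries was 20 counts. The sex chromosomes were not analysed here.

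The raw counts entered edgeR 4.0.16 (R 4.3.3) with these settings (filterByExpr by label, TMM scaling, robust quasi-likelihood test, Benjamini-Hochberg adjustment) and were compared once between the labels and once with a group per line. Standard errors were derived from the F statistic. Alternatives used DESeq2 1.42.0 and limma 3.58.1. Fits were tested on simulated data in which lines of the same label did not differ. That test therefore does not cover the label comparison where such lines differ. Sequences were read from RefSeq (GRCm38.p6) and GENCODE tables with Python 3.11.15, and plots were drawn with matplotlib 3.10.9.

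The genes and the lists (zinc exporters, zinc importers, other MTF1 targets, copper handling, glucocorticoid response, cell type markers) were chosen with earlier results of these data known. List genes were named if called between the labels or between MC010 and MC011, or if needed to account for the list. Neighbours lay within 250 kb of Mt1, and the genes most alike were the 3 with the highest Pearson correlation among tested genes with a mean log2 CPM of at least 1. Replicate numbers did not pair libraries (correlations of deviations −0.02 to 0.04 over 6 pairs of lines).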

Additional observations from a re-analysis of the deposited data

Results flagged for a closer look

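Slc30a1 differed between the lines that share the IRF8 KO label, with a log2 difference of −1.29 for MC010 minus MC011 (edgeR adjusted p = 5.76e-08). Against the lines labelled WT, MC010 was lower and MC011 higher in all 4 comparisons. Dixon's test flagged no outlying library in the 12 groups of 4 libraries examined. Each group joined the libraries of both lines of a label. Where those lines differ, as for Slc30a1 under the IRF8 KO label, the test can hardly flag a library. The absence of a flag there therefore says little about single libraries.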

How the results depend on the processing

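Mt1 and Mt2 were called between the labels under DESeq2, DESeq2's size factors, upper-quartile scaling, no filter on low counts, limma-voom with a random block for line, and with each library or each line left out. They were not called when the counts of each line were added (0.81, adjusted p = 0.0871, and 2.81, adjusted p = 0.0511), where 0 genes were called higher, 0 lower and 0 of the members, although 3361 genes had an unadjusted p under 0.05 in edgeR. That fit has 2 values against 2. Under the random block, the limma adjusted p was 0.0395 for Mt1, near the threshold, and 1.73e-05 for Mt2. With each library left out, the log2 fold changes ran from 0.74 to 0.86 for Mt1, 2.75 to 2.87 for Mt2, 0.04 to 0.14 for Mtf1 and −0.21 to 0.22 for Slc30a1, with 2 members called in each case, 1764 to 2151 genes higher and 1070 to 1395 lower, and Slc30a1 in MC010 minus MC011 from −1.40 to −1.15. Without MC010, Slc30a1 was at 0.50 (adjusted p = 0.00128). Without MC011, it was at −0.76 (0.000484), Mtf1 at 0.20 (0.0245), and 2518 genes were lower. The random block called 1037 genes higher and 839 lower, leaving out MC654 1270 and 873, leaving out MC659 1256 and 722, and dropping the fold threshold 3151 and 2524, against 2083 and 1321. The cause of these changes was not tested. The replicate block called 3106 genes, 3098 of them among the 3404 called without it, and changed no call of a member between the labels. When each line's counts were added, 0 genes were called in any of the 5 lists, and with MC654 or MC659 left out 0 SLC39 genes were called higher. The log2 ratio of Mt2 to Mt1 per kb went from 0.64 with exon unions to −0.34 with single transcripts in MC010, and from 0.82 to −0.16 in MC011, an alternative chosen after seeing the data. The lengths alone make this change. Mt3, Mt4 and Slc39a5 were below the filter on low counts.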

Other observations

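Metallothioneins also bind copper. Of 10 copper-handling genes, 8 were tested, 3 were called higher under the IRF8 KO label and 1 lower, where 13.7% and 8.72% of all tested genes were, with a median log2 fold change of 0.47 against 0.02 over all tested genes. Those higher were Atox1, a copper chaperone (62.0 against 39.0 CPM, 1.59-fold, edgeR adjusted p = 0.00173), Ccs, the chaperone for superoxide dismutase (36.9 against 24.2 CPM, 1.52-fold, 0.00610), and Sod1, that enzyme (259.1 against 158.9 CPM, 1.63-fold, 0.0142). Cox17, which carries copper to mitochondria, was lower (4.62 against 7.93 CPM, edgeR adjusted p = 0.00205). With MC010 left out, 0 of the list were called higher, and with MC654 or MC659 left out 1 was.

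Of 8 genes of the glucocorticoid response, 6 were tested and 2 were called higher under the IRF8 KO label, where 13.7% of all tested genes were, with a median log2 fold change of 0.13. With MC654 left out 0 were called higher, and with MC010 or MC659 left out 1 was. Dusp1, a phosphatase gene, was at 30.3 against 7.33 CPM (4.14-fold, edgeR adjusted p = 0.00255), and Sgk1, a kinase gene, at 672.4 against 243.3 CPM (2.76-fold, 0.0377). Between MC010 and MC011, where 31.6% of all tested genes were called, Sgk1 was higher in MC010 by a log2 difference of 1.87. Fkbp5, Dusp1 and Klf9 were instead lower in MC010, by −0.97, −1.24 and −0.95.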
